A study of Mus musculus with 30 samples.

Results

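Expression of 6 genes of the PD-1 and TIM-3 inhibitory axes was followed in cultured mouse microglia, the macrophages of the brain. They were chosen by name, for what their products do, and with earlier results of these data known. All 6 are among the 13788 genes of the deposited table: the receptor PD-1 (Pdcd1), its ligand PD-L1 (Cd274), galectin-9 (Lgals9), the galectin-9 receptor TIM-3 (Havcr2), and the phosphatases SHP-1 (Ptpn6) and SHP-2 (Ptpn11). Each of the 6 also passed the filter on low values, Pdcd1 through the libraries labelled PD-1 KO alone. Their products belong to a brake on immune cells. PD-1 is a receptor of activated lymphocytes that some myeloid cells also carry, and when PD-L1 or PD-L2 binds it, tyrosine motifs in its tail recruit SHP-2 and SHP-1, which remove phosphate from activating kinases and their partners. TIM-3, present on microglia and other myeloid cells, is bound by galectin-9 among other ligands, and PD-L1 and galectin-9 are both known to be induced by interferons.

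RNA was sequenced from primary microglia grown out of mouse brains and shaken off the culture, in 10 groups of 3 libraries. The groups were WT and PD-1 KO mice (the latter labelled as lacking PD-1, with no allele or strain given), at 0 h, and at 2 h and 8 h without amyloid-beta and with it. Amyloid-beta, the peptide of Alzheimer plaques, was given as conditioned medium, and the labels give neither the medium of the untreated cultures nor the age of the mice. In the titles the 8 h libraries carry a run of numbers apart from that of the 0 h and 2 h libraries. What this break stands for is not stated. It cannot be told apart from time wherever 8 h is set against 0 h or 2 h. Nothing says that the 3 libraries of a group came from separate animals, so the p-values rest on a spread between libraries that may be technical.

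Pdcd1 went against its label, as the next values show, so libraries are named below by their label. Whether labels were exchanged or the targeted gene still gives transcripts was not tested, and an exchange would turn the sign of every label difference below. The libraries held 4227019 to 48509985 reads (median 9603082), and the mean correlation of a library with the others of its group lay between 0.975 and 0.990, so that no library was left out. Markers of other brain cells moved with the label: all 9 measured astrocyte markers were higher under the PD-1 KO label (summed signal 11325 to 28482, against 1270.3 to 3867 under the WT label), while 10 of 17 microglia markers were lower and 4 higher (93245 to 163843 against 131813 to 211627). By condition the microglia markers changed sign, with a median of 0.32 at 0 h (7 higher, 3 lower), -0.52 at 2 h, -0.87 at 2 h with amyloid-beta (12 lower), -0.10 at 8 h and -0.28 at 8 h with amyloid-beta. Each difference between labels below stands beside this one, and a smaller share of microglia and less RNA per microglial cell cannot be told apart in bulk RNA. All values are the deposited normalised signal, and differences are log2 values ± SE from limma on log2(signal + 1), with p-values adjusted by Benjamini-Hochberg over all 13722 genes tested. The share of all genes in which compared groups do not overlap was not taken. Each lack of overlap below thus describes the values and is not set apart from what other genes do.

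Of the 250 bases before the transcription start, those of Lgals9 are shown because this gene gave the widest difference among the genes read in every library, with those of the 3 genes whose signal over the 30 libraries was most like it (Oas1a, Pvrl4 and H2-T23). The window of Cd274, the other ligand, stands below them. They are RefSeq sequences of GRCm38.p6, written 5′ to 3′ on the strand of the gene. Capitals mark matches to an interferon-stimulated response element core (GAAA, any 2 bases, GAAA, on either strand) and, in Oas1a, also to a STAT motif (TTCNNNGAA) in its first capital stretch.
Lgals9 (chr11:78984925-78985174, minus strand): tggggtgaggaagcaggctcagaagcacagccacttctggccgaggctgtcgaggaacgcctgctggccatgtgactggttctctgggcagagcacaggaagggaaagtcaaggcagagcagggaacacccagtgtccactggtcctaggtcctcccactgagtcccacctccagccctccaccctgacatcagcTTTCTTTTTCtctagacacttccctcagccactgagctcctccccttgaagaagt
Oas1a (chr5:120907526-120907775, minus strand): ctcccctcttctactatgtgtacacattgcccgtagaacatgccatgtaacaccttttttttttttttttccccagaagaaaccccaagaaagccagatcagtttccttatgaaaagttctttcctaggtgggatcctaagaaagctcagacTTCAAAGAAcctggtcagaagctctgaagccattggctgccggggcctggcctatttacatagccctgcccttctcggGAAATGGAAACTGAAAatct
Pvrl4 (chr1:171369923-171370172, plus strand): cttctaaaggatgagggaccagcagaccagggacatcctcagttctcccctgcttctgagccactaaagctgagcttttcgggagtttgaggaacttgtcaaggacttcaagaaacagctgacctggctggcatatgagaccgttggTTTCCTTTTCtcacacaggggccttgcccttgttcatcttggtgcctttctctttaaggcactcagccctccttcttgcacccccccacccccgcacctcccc
H2-T23 (chr17:36032702-36032951, minus strand): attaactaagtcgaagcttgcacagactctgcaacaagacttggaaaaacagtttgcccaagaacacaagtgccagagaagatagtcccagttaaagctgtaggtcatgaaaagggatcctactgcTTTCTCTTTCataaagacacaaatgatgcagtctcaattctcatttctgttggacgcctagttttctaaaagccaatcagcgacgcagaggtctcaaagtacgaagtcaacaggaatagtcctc
Cd274 (chr19:29367188-29367437, plus strand): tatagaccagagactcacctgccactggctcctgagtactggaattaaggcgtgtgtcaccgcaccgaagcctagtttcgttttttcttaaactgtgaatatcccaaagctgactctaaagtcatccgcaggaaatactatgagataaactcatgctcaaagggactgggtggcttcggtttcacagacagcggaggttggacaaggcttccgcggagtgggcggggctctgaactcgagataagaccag
The Lgals9 match lies 55 to 46 bases before the start and reads on the opposite strand. Such a core was found in 2.98% of 32851 promoter windows of this length and a STAT motif in 7.02%. Of 5 motifs searched in the windows of the 6 genes (these 2, GGG, any 2 bases, TTTCC for NF-kB in 1.41% of windows, CACGTG for the E-box in 6.02% and TGANTCA for AP-1 in 6.75%, all on both strands), the only other match was TGATTCA, 200 to 194 bases before the start of Havcr2 on its own strand. The ISRE core can overlap itself, as it does in Oas1a. A match describes letters in this window and nothing about binding.

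Pdcd1, on chromosome 1 (94038305 to 94052553, minus strand, GRCm38), encodes the receptor that the mice are labelled as lacking. It lay at the floor of the table, a signal of 1, in all 15 libraries labelled WT. In libraries labelled PD-1 KO it stood at 12.4, 7.11 and 9.14 at 0 h, at 12.8, 16.4 and 8.19 at 2 h, and at 13.4, 6.02 and 25.3 at 2 h with amyloid-beta. At 8 h it stood at 20.4, 17.7 and 24.02, and at 8 h with amyloid-beta at 17.6, 9.96 and 11.99. All 15 libraries labelled PD-1 KO thus lay above all 15 labelled WT, at a low level.

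The mean with the PD-1 KO label was 14.2 ± 5.95 (SD, n = 15), from 3 to 46 reads per library and 274 in all. No read can hide at the floor in 11 of the WT-labelled libraries. A total of 3 reads in these 11 would give 0.368, so the signal with the PD-1 KO label was at least 38.5-fold higher than in these 11. In the other 4 up to 8 reads in all could lie under the floor, and the bound does not cover them. Since Pdcd1 passed the filter only through the libraries where it is high, its label difference is given as a description, without a test. Whether these reads fall in the part of the gene that was targeted cannot be read from gene-level values. Of 13 T and NK cell markers 4 could be read, with a summed signal of 669 to 1255 under the PD-1 KO label and 1185 to 1954 under the WT label. Most of this sum was Cd28 (group means 616 to 1496) and Il7r (149 to 264). Cd4 stood at 3.55 to 23.3, and Cd8a left the floor only at 2 h with the WT label. Il7r was higher with the PD-1 KO label at 2 h (254 against 149) and slightly lower at 0 h (257 against 264). The CD3 genes, the 6 B cell markers and the 8 neutrophil markers were not analysed here. Their part in the Pdcd1 signal was not tested.

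Within the libraries labelled PD-1 KO, the 8 h group without amyloid-beta had the highest mean of Pdcd1 (20.7 ± 3.18, n = 3) and the 0 h group the lowest (9.54 ± 2.66). These 2 groups did not overlap, and the difference of 1.06 ± 0.41 did not pass (adjusted p = 0.197 in limma). With amyloid-beta at 8 h the value was lower by -0.64 ± 0.41 (adjusted p = 0.779), without overlap by a margin under 1 read. The nearest libraries stood at 17.68 without amyloid-beta (9 reads) and 17.65 with it (22 reads). Neighbours in the order of the 5 groups overlapped in every case. Of the 7 tested genes whose annotated start lies within 500 kb of Pdcd1, 2 were higher and 4 lower with the PD-1 KO label (85.7% called, against 59.5% of all genes and 42.9% to 75% of the neighbours of the other 5 genes), among them Bok at 2.20 ± 0.17 and D2hgdh at -0.75 ± 0.08. Hist1h2al (r = 0.966), Mmp9 (0.959) and Ctse (0.955) had the signal most like that of Pdcd1 over the 30 libraries, a likeness in which the difference between the labels is contained.

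**Figure D1:**
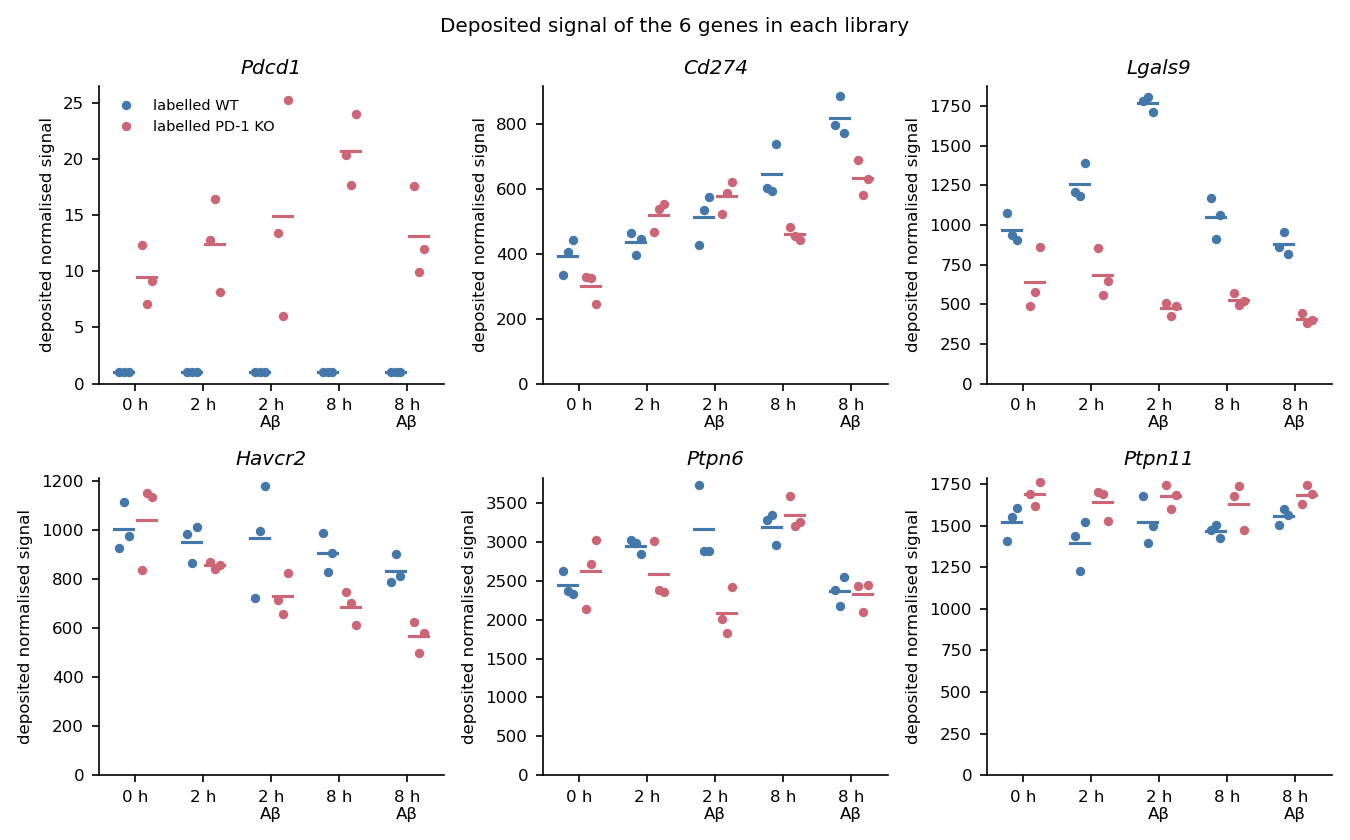
Deposited normalised signal (vertical axes, from 0) of each of the 6 genes in the 30 libraries, by time and treatment (Aβ, amyloid-beta); points are libraries, bars group means of 3, blue labelled WT and red labelled PD-1 KO. Pdcd1 lies at 1 in all blue points, Lgals9 is lower in red than in blue in each of the 5 conditions, and Cd274 changes order between conditions.

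The 2 labels were compared in each condition and over all 5. Pdcd1 is left out of these counts for the reason above. Over all conditions each of the other 5 genes passed, 1 higher and 4 lower, where 59.5% of all genes did, 30.3% higher and 29.1% lower. A call over all conditions was thus common among all genes, and the members are described by size and by pattern over the conditions. The share of calls that were higher was 51% of all genes called, and 34.3% with quantile normalization, which moves the median of all genes from -0.02 to -0.11. At 0 h 2 of the 5 passed (20.7% of all genes), at 2 h 2 (32.2%), at 2 h with amyloid-beta 3 (38.9%), at 8 h 3 (27%) and at 8 h with amyloid-beta 3 (33.7%).

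Lgals9, on chromosome 11 (78962974 to 78984946, minus strand), was lower with the PD-1 KO label in every condition, and least so at 0 h. At 0 h it stood at 1074, 935 and 906 in libraries labelled WT and at 487, 580.3 and 860.3 in those labelled PD-1 KO. At 2 h it stood at 1208, 1183 and 1390.2 with the WT label and at 856, 557 and 649 with the PD-1 KO label. At 2 h with amyloid-beta the values were 1785, 1806 and 1715 against 508, 426 and 491. The highest values of all 30 libraries are the 3 labelled WT at 2 h with amyloid-beta, and in none of these conditions did the labels overlap. The microglia markers moved beside them, from a median of 0.32 at 0 h to -0.52 at 2 h and -0.87 at 2 h with amyloid-beta.

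At 8 h Lgals9 stood at 1169, 909 and 1065 with the WT label and at 574, 493 and 521 with the PD-1 KO label. At 8 h with amyloid-beta it stood at 863, 956 and 820.0 against 444, 383 and 399, again without overlap. The differences were -0.63 ± 0.15 at 0 h (adjusted p = 0.00246), -0.89 at 2 h (3.31e-05), -1.90 at 2 h with amyloid-beta (2.08e-10), -0.98 at 8 h (1.2e-05) and -1.103 at 8 h with amyloid-beta (9.68e-07), all by limma. Over all conditions the difference was -1.102 ± 0.07, or -53.4% (1186 ± 338 against 549 ± 144, n = 15 each). Each of the 6 differences kept its call without any 1 library, under quantile normalization and when values were centred on the microglia markers, and the one at 0 h was smallest, at -0.46 (0.0427), without replicate 1 labelled PD-1 KO.

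Cd274, on chromosome 19 (29367455 to 29388095, plus strand), encodes PD-L1 and changed its order between the labels with time. At 0 h it stood at 334, 406 and 441 in libraries labelled WT and at 329, 324 and 245 in those labelled PD-1 KO. At 2 h it stood at 464, 396 and 447 with the WT label and at 466, 537 and 553 with the PD-1 KO label, and with amyloid-beta at 426, 536 and 575 against 523, 586 and 621. The labels did not overlap at 0 h or at 2 h, and the label with the higher values was WT at 0 h and PD-1 KO at 2 h.

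At 8 h Cd274 stood at 604, 593 and 737 with the WT label and at 483, 456 and 441 with the PD-1 KO label, and with amyloid-beta at 798, 885 and 773 against 690.0, 580.1 and 632. Both 8 h conditions had all values labelled WT above those labelled PD-1 KO. The difference was -0.40 ± 0.13 at 0 h (adjusted p = 0.0241), -0.48 ± 0.13 at 8 h (0.00506) and -0.37 ± 0.13 at 8 h with amyloid-beta (0.0244), and it was 0.25 ± 0.13 at 2 h (0.134) and 0.18 ± 0.13 at 2 h with amyloid-beta (0.277). The call at 0 h was lost without replicate 2 or 3 labelled WT or replicate 3 labelled PD-1 KO (adjusted p up to 0.173), with voom on the recovered reads (0.0851) and with these 2 groups fitted alone (0.102). At 8 h it was lost without replicate 3 labelled WT (0.052), and with amyloid-beta without replicate 2 labelled WT or replicates 2 or 3 labelled PD-1 KO (up to 0.123). Over all conditions the value was -0.16 ± 0.06 (adjusted p = 0.0148), and 0.02 when centred on the microglia markers, a scaling that moved the median of all genes from -0.02 to 0.16. With that centring neither 8 h difference passed (-0.50 ± 0.20, adjusted p = 0.0824 without amyloid-beta, as large as before with a wider error, and -0.22 ± 0.20, 0.542 with it), and those at 2 h (0.65, 0.011) and 2 h with amyloid-beta (0.87, 0.000442) did. The median of all genes in these last 2 was then 0.404 and 0.705, and 96.3% and 98.1% of all genes called were higher. An antisense transcript overlaps Cd274 and another overlaps Ptpn6, an unclassified transcript lies within Ptpn11, and the library kit is not stated to keep strand, so reads of such pairs cannot be told apart.

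Havcr2, on chromosome 11 (46454935 to 46481255, plus strand), encodes the receptor of galectin-9, and its label difference was seen in the later and treated conditions. At 0 h it stood at 926, 1111 and 973 with the WT label and at 835, 1148 and 1131 with the PD-1 KO label, with overlap. At 8 h it stood at 988, 827 and 905 against 744, 699 and 613, and at 8 h with amyloid-beta at 788, 901 and 810.1 against 623, 497 and 581. In both 8 h conditions every library labelled PD-1 KO lay below every library labelled WT. At 2 h the values were 980.2, 862 and 1012 against 869, 839 and 855, and with amyloid-beta 722, 993 and 1178 against 714, 655 and 823. These overlapped.

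The Havcr2 difference was 0.04 ± 0.14 at 0 h (adjusted p = 0.891), -0.15 at 2 h (0.433), -0.38 at 2 h with amyloid-beta (0.0304), -0.40 at 8 h (0.0296) and -0.56 at 8 h with amyloid-beta (0.00208). Only the last of the 3 calls was kept without each library in turn. The call at 2 h with amyloid-beta, where the labels overlapped, was lost without replicate 2 or 3 labelled WT or replicate 1 or 2 labelled PD-1 KO (adjusted p 0.0786 to 0.233) and with these groups fitted alone (0.126), and turned to 0.31 when centred on the microglia markers. The median of all genes with that centring was 0.705 there. The call at 8 h was lost without replicate 1 or 3 labelled WT or replicate 2 or 3 labelled PD-1 KO (0.0556 to 0.134). Over all conditions the difference was -0.29 ± 0.06 (adjusted p = 0.000194), and -0.11 (0.174) when centred on those markers.

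Ptpn6, on chromosome 6 (124720707 to 124738714, minus strand), encodes SHP-1, the phosphatase of blood and immune cells. Its label difference passed in a single condition, 2 h with amyloid-beta, where it stood at 3736, 2886 and 2889.7 with the WT label and at 2008, 1835 and 2420.3 with the PD-1 KO label. These did not overlap (-0.60 ± 0.12, adjusted p = 0.000227), and the call held without each library in turn but turned to 0.09 when centred on the microglia markers, of which 12 of 17 were lower there. The median of all genes with that centring was 0.705 in this condition. In the other 4 conditions the labels overlapped and the differences ran from -0.20 to 0.09, with adjusted p from 0.217 to 0.911. Over all conditions the value was -0.13 ± 0.05 (0.0362). That call was lost with quantile normalization (0.565), with voom (0.0562), and without any 1 of 12 libraries: replicate 1 of either label at 0 h, replicates 2 and 3 labelled PD-1 KO at 2 h, replicate 1 labelled WT and replicates 1 and 2 labelled PD-1 KO at 2 h with amyloid-beta, replicates 1 and 2 labelled WT and 2 labelled PD-1 KO at 8 h, and replicate 3 labelled WT and 2 labelled PD-1 KO at 8 h with amyloid-beta (0.0526 to 0.0778).

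Ptpn11, on chromosome 5 (121130533 to 121191397, minus strand), encodes SHP-2, which most cell types express. It was the steadiest of the 6, with library values from 1229.8 to 1681 with the WT label (median 1507) and from 1479 to 1765 with the PD-1 KO label (median 1689.7). The label difference was 0.16 ± 0.04 over all conditions (adjusted p = 0.000567), or 11.7% more signal. At 2 h the values were 1439, 1229.8 and 1524 against 1705, 1691 and 1531, which did not overlap (0.24 ± 0.08, adjusted p = 0.0298), though the call was lost without replicate 2 labelled WT or replicate 1 or 2 labelled PD-1 KO (0.0981 to 0.245) and with these groups fitted alone (0.108). In the other 4 conditions the differences ran from 0.12 to 0.15 and did not pass (adjusted p 0.179 to 0.306), with 0 h and 8 h with amyloid-beta free of overlap. Under quantile normalization those with amyloid-beta passed, at 0.28 for 2 h (0.00467) and 0.23 for 8 h (0.0167), and centred on the microglia markers that at 2 h with amyloid-beta was 0.83 (5.7e-06). The median of all genes with that centring was 0.705 there.

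The mean of the astrocyte markers, used as a covariate, ended every label call of these 5 genes. For Pdcd1 the values given are those of the 3 conditions in which it no longer passed with this covariate. The fitted difference of Pdcd1 was wider there, at 3.42 against 2.71 at 2 h, 3.58 against 2.79 at 2 h with amyloid-beta and 3.72 against 2.79 at 8 h with amyloid-beta. Its SE rose from 0.41 to between 0.92 and 1.14 there, and these 3 values are also given as a description, without a test. Lgals9 came to -0.35 over all conditions (adjusted p = 0.777) and to -1.07 at 2 h with amyloid-beta (0.171). With it Havcr2 and Ptpn6 turned to 0.33 and 0.49 over all conditions and Ptpn11 to -0.03, none of which passed. Since the astrocyte signal does not overlap between the labels, the astrocyte content of a culture and its label cannot be told apart.

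**Figure D2:**
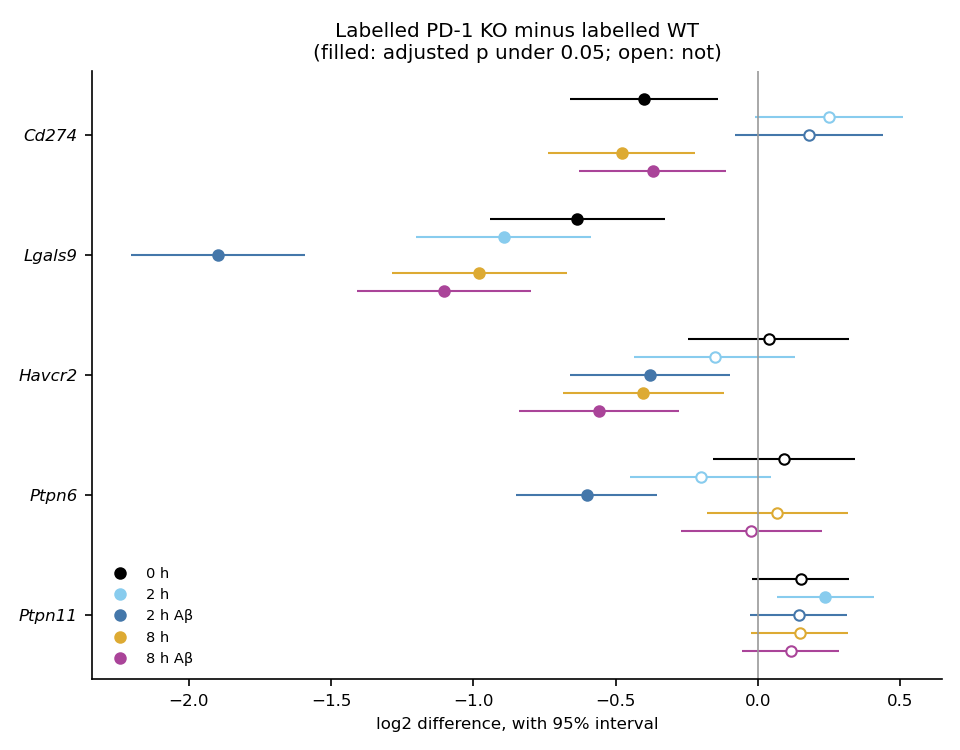
Log2 difference of libraries labelled PD-1 KO minus those labelled WT (horizontal axis, lines are 95% intervals) for 5 genes in each of the 5 conditions; filled points passed an adjusted p of 0.05 in limma and open points did not. Lgals9 is left of 0 throughout and farthest at 2 h with amyloid-beta (-1.90), and Cd274 lies left of 0 at 0 h and 8 h and right of it at 2 h.

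Amyloid-beta was compared with no amyloid-beta within each label at 2 h and 8 h, to ask for a response of the checkpoint genes. None of the 6 genes passed in any of the 4 comparisons by limma. With the WT label Pdcd1 lay at the floor throughout, so it could not pass here or in the comparisons of time below. Where an effect is compared between the labels, its value is that of the PD-1 KO label alone. At an unadjusted p under 0.05 there were 1 at 2 h and 2 at 8 h with the WT label, and 2 and 3 with the PD-1 KO label; voom called 0 in each. Over all genes the adjusted calls were 0% and 0% at 2 h, and 2.18% (WT) and 0.0583% (PD-1 KO) at 8 h. The share of all genes at an unadjusted p under 0.05 was not taken, so unadjusted counts here and below have none beside them.

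At 2 h Lgals9 went opposite ways in the libraries of the 2 labels. With the WT label the 3 libraries with amyloid-beta (1715 to 1806) lay above the 3 without (1183 to 1390.2), a difference of 0.49 ± 0.15 (adjusted p = 0.831). With the PD-1 KO label those with amyloid-beta (426 to 508) lay below those without (557 to 856), by -0.51 ± 0.15 (adjusted p = 0.768). The difference between the labels in this effect was -1.005 ± 0.21 (95% interval -1.44 to -0.57, adjusted p = 0.056), where 0.051% of all genes passed. It passed without replicate 3 labelled WT at 2 h (-1.08, adjusted p = 0.038) or replicate 2 labelled PD-1 KO at 2 h (-1.15, 0.0215), and not without any other library of these groups, with adjusted p up to 0.323. Over the 6 genes 0 passed by limma, 2 had an unadjusted p under 0.05 and voom called 0, with Ptpn6 at -0.40 ± 0.17 (0.996). At 8 h the difference between the labels passed for 0 of 6 genes and 0% of all genes, with 0 of the 6 at an unadjusted p under 0.05 and 0 by voom.

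At 8 h Ptpn6 and Cd274 differed with amyloid-beta in opposite directions, alike in both labels. Ptpn6 stood at 3283, 3347 and 2961 without and 2377, 2173 and 2546 with amyloid-beta with the WT label (-0.43 ± 0.12, adjusted p = 0.054), and at 3587, 3200.5 and 3262 against 2438, 2104 and 2445 with the PD-1 KO label (-0.53 ± 0.12, 0.0863). No library with amyloid-beta reached one without. Under quantile normalization both values passed (0.0474 and 0.0383), as they did with the astrocyte covariate (0.0114 and 0.0482), and that of the WT label also without its 8 h replicate 3 (0.0398) and with its groups fitted alone (0.048). Cd274 was higher with amyloid-beta by 0.35 ± 0.13 with the WT label (adjusted p = 0.17) and by 0.46 ± 0.13 with the PD-1 KO label (0.186), each without overlap, and the latter passed when centred on the microglia markers (0.89, 0.0112). With that centring the median of all genes was 0.446 in the comparison labelled PD-1 KO. Neither gene's effect was shown to differ between the labels: the differences were -0.09 (95% interval -0.44 to 0.26) for Ptpn6 and 0.11 (-0.26 to 0.48) for Cd274. Microglia markers had a median of -0.21 with the WT label and -0.42 with the PD-1 KO label beside these values, and the astrocyte markers of -0.90 and 0.15.

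Without amyloid-beta, the groups at 2 h and 8 h were compared with those at 0 h, which they share as controls. The break in title numbers stands beside each 8 h comparison here and below. Cd274 rose by 8 h with either label, by 0.71 ± 0.13 in libraries labelled WT (adjusted p = 0.000696) and by 0.63 ± 0.13 in those labelled PD-1 KO (0.00296). By 2 h it had risen by 0.80 ± 0.13 with the PD-1 KO label (0.000656), and stood 0.15 ± 0.13 higher with the WT label (0.565). That difference of 0.65 ± 0.18 between the labels did not pass (adjusted p = 0.0822, where 0.736% of all genes passed). It was the single one of the 6 genes with an unadjusted p under 0.05, voom called 0, and it passed without replicate 1 labelled WT (0.76, 0.0277) or replicate 1 labelled PD-1 KO (0.73, 0.0368) at 0 h. Fitted on the 2 groups compared alone, the rises with the PD-1 KO label did not pass (0.0558 at 2 h and 0.0698 at 8 h). Centred on the microglia markers, the 8 h rise came to 0.41 (0.128) with the WT label and 0.63 (0.136) with the PD-1 KO label. The median of all genes with that centring was -0.315 and 0.005 in these comparisons. Cd274 at 2 h with the WT label turned to -0.45, where that median was -0.604, so that Cd274 still lay above it. Beside these values, 7 of 17 microglia markers were higher at 2 h with the WT label (median 0.40), and their median with the PD-1 KO label was -0.09.

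Of the other genes Havcr2 fell by 8 h with the PD-1 KO label, from 835, 1148 and 1131 to 744, 699 and 613 (-0.59 ± 0.14, adjusted p = 0.012). With the WT label it stood at -0.15 ± 0.14 (0.615), and the difference between the labels of -0.44 ± 0.20 did not pass (0.423). The fall was not called without replicate 2 or 3 at 0 h or replicate 3 at 8 h (0.0787 to 0.0963), nor when only these 2 groups were fitted (0.0956). Ptpn6 was 0.39 ± 0.12 above its 0 h level at 8 h with the WT label (0.0537) and 0.36 ± 0.12 with the PD-1 KO label (0.112), with no overlap. The first passed under quantile normalization (0.0354), with its groups fitted alone (0.0311) and with the astrocyte covariate (0.0434), and the second with that covariate (0.0158), when centred on the microglia markers (0.0464) or without replicate 3 at 0 h (0.05). In all, 1 of 6 genes passed at 8 h with the WT label (6.05% of all genes) and 2 with the PD-1 KO label (3.29%). At 2 h 0 and 1 passed (4.75% and 0.634%). With the WT label at 2 h, 2 of 6 had an unadjusted p under 0.05 and voom called 0. Pdcd1 could not pass in either comparison with the WT label. For the 8 h change, the difference between labels passed for 0 of 6 genes (0.27% of all genes), with 1 of 6 at an unadjusted p under 0.05 and 0 by voom.

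**Figure D3:**
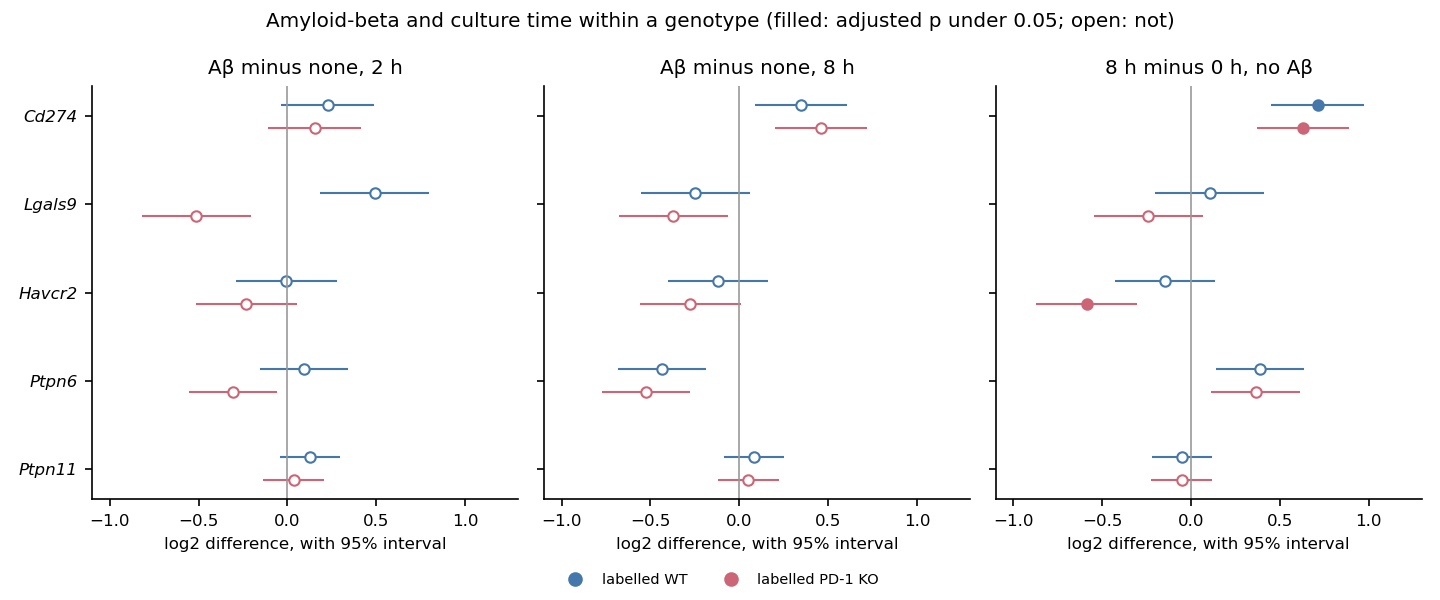
Log2 differences within a label (horizontal axes, lines are 95% intervals) for amyloid-beta against none at 2 h (left) and 8 h (middle) and for 8 h against 0 h without amyloid-beta (right); filled points passed an adjusted p of 0.05 in limma and open points did not. The 2 labels lie on opposite sides of 0 for Lgals9 at 2 h, and the filled points are Cd274 in both labels and Havcr2 with the PD-1 KO label, all at 8 h against 0 h.

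Per kb of annotated exon, which allows levels of different genes to be set side by side, Ptpn6 had the highest signal (1009 with the WT label and 927 with the PD-1 KO label). Lgals9 followed with the WT label (555, against 257), then Havcr2 (342 and 285), Ptpn11 (199.6 and 223), Cd274 (155 and 137) and Pdcd1 (7.34 with the PD-1 KO label). Havcr2 thus lay above Lgals9 with the PD-1 KO label and below it with the WT label.

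Ratios of 2 genes within a library do not depend on how the library was scaled. The ratio of Lgals9 to Havcr2 per kb, ligand to receptor, was 1.07 to 3.15 in libraries labelled WT (mean 1.64 ± 0.52, n = 15) and 0.644 to 1.25 in those labelled PD-1 KO (0.909 ± 0.146, n = 15). Within each of the 5 conditions the labels did not overlap in this ratio. Lgals9 to Cd274, the balance of the 2 ligands, was 4.28 ± 1.04 at 0 h and 1.82 ± 0.02 at 8 h with amyloid-beta with the WT label, and 3.84 ± 1.86 and 1.09 ± 0.02 with the PD-1 KO label (n = 3 each). The labels overlapped in it at 0 h and did not in the other 4 conditions. Ptpn6 to Ptpn11 was 5.54 ± 0.39 and 3.32 ± 0.44 at 2 h with amyloid-beta with the WT and PD-1 KO labels, without overlap, as at 2 h, and overlapped in the other 3 conditions. At 8 h amyloid-beta went with a lower Ptpn6 to Ptpn11 ratio in every library of either label (4.06 ± 0.39 against 5.81 ± 0.23 for WT, 3.69 ± 0.41 against 5.50 ± 0.52 for PD-1 KO). These ratios were chosen after the values were seen and carry no test.

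**Figure D4:**
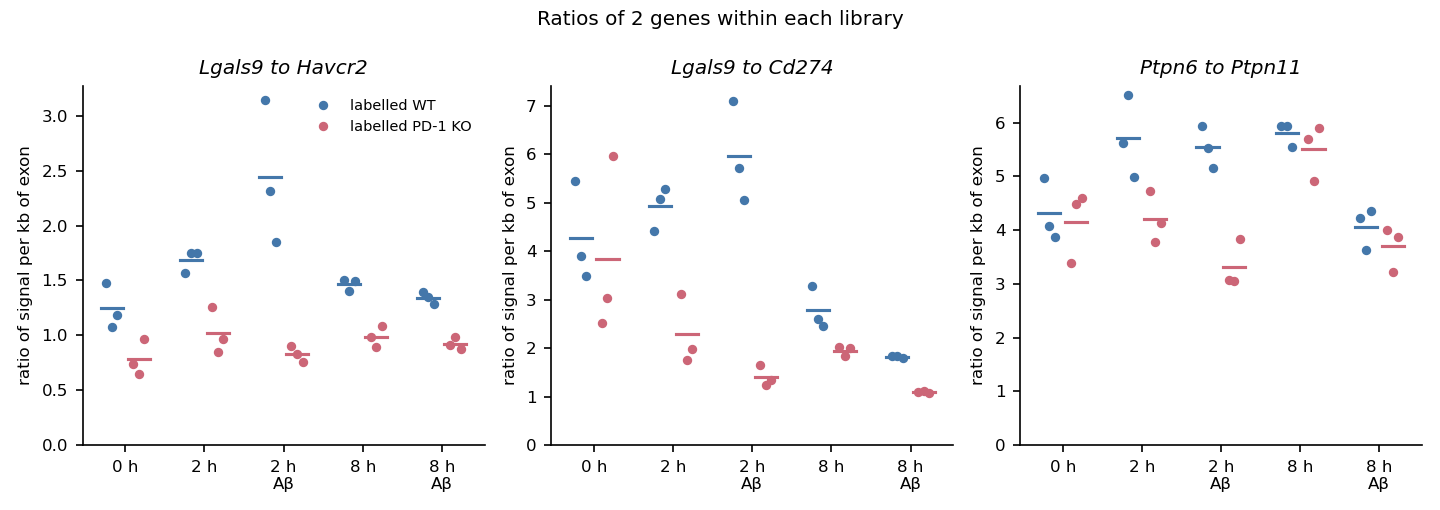
Ratio of the signal per kb of exon of 2 genes within each library (vertical axes, from 0), by time and treatment; points are libraries, bars means of 3, blue labelled WT and red labelled PD-1 KO. For Lgals9 to Havcr2 every blue point lies above every red point of its condition, with blue means from 1.24 to 2.44 and red means from 0.785 to 1.02.

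In the order of the 10 group means, Lgals9 began with 2 h with amyloid-beta (1769 ± 47.5), 2 h (1260.4 ± 113) and 8 h (1048 ± 131), all labelled WT, and all 5 groups labelled WT preceded the 5 labelled PD-1 KO. Of its 9 neighbouring pairs, 2 did not overlap, both among the first 3 groups. Cd274 began with 8 h with amyloid-beta labelled WT (819 ± 58.8), apart from the next group, and ended with 0 h labelled PD-1 KO (299 ± 47.4), apart from the group before it. For Havcr2, Ptpn6 and Ptpn11 all neighbouring groups overlapped. All 5 groups labelled PD-1 KO preceded all 5 labelled WT for Ptpn11, from 1693 ± 71.3 at 0 h to 1398 ± 151 at 2 h labelled WT.

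Across the 30 libraries, whose labels, treatments and astrocyte content are shared by all genes, the members varied in different company. Lgals9 was most like Oas1a (r = 0.979), an interferon-induced sensor of double-stranded RNA, Pvrl4 (0.964) and H2-T23 (0.961), a nonclassical class I molecule. All 3 promoter windows hold the ISRE core shown above, as does that of Lgals9. Cd274 was most like Zfp740 (0.876), Samd8 (0.862) and Fam126b (0.844), and Havcr2 was like R3hdm1 (0.893) and B4galt6 (0.864). Ptpn6 was most like Spi1 (0.915), which encodes PU.1, the master factor of myeloid cells, Csf1r (0.897), the receptor on which microglia depend, both on the microglia marker list, and Rhog (0.897), and Ptpn11 like Cpne1 (0.859) and Ppm1f (0.848). Between Lgals9 and Havcr2 r was 0.66 over all libraries, 0.231 over the 15 labelled WT and 0.771 over the 15 labelled PD-1 KO. Between Cd274 and Havcr2 it was -0.344, -0.236 and -0.708.

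Other genes of the same pathways were read from lists of known members. Of 16 other checkpoint receptors and ligands measured, 4 were higher and 6 lower with the PD-1 KO label over all conditions (median 0.03, all genes -0.02). Of all genes 30.3% were higher and 29.1% lower there, and the counts of this list and the next 5 are to be read against these shares. Igsf11, a ligand of the checkpoint VISTA, was higher by 2.61 ± 0.12 (571 against 94.96), and VISTA itself, listed as 4632428N05Rik, was lower by -0.60 ± 0.05 (3592 against 5406). Cd48 (-0.61 ± 0.05) and Cd200r1 (-0.46 ± 0.04), the receptor by which neuronal CD200 restrains microglia, were lower too. The VISTA gene also fell from 0 h to 8 h with both labels, by -0.62 ± 0.11 (WT) and -0.78 ± 0.11 (PD-1 KO). Pdcd1lg2, which encodes PD-L2, Ctla4, Lag3 and Tigit were not analysed here.

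Among 20 myeloid receptors with the inhibitory tyrosine motifs that SHP-1 and SHP-2 bind, 7 were higher and 8 lower with the PD-1 KO label (median -0.08, with 59.5% of all genes called). Mpzl1 was higher by 0.81 ± 0.07, while Lair1 (-0.60 ± 0.05), Fcgr2b (-0.55 ± 0.08) and Cd300a (-0.54 ± 0.05) were lower. Cd300lf, outside the naming rule and chosen after its values were seen, had the widest difference of the list, 3.84 ± 0.09 (345 against 24.1). Without amyloid-beta 6 of the 20 rose from 0 h to 8 h with the WT label (3% of all genes) and 3 with the PD-1 KO label (1.5%). Their medians were 0.31 and 0.24, beside 0.22 (3 of 17 higher) and -0.002 for the microglia markers. Cd72 rose with the WT label by 1.07 ± 0.19 at 2 h and 0.69 ± 0.19 at 8 h, and its 2 h change was smaller with the PD-1 KO label by -1.19 ± 0.27 (adjusted p = 0.0312).

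Of 21 genes known to induce, transcribe or stabilise PD-L1, 4 were higher and 10 lower with the PD-1 KO label over all conditions (median -0.06, with 59.5% of all genes called). Irf9 (-0.54 ± 0.07), a transcription factor of interferon signalling, was lower, and Stat3 (0.31 ± 0.04) and Cmtm4 (0.29 ± 0.05), a stabiliser of PD-L1 protein, were higher. At 2 h 8 were lower and 2 higher (13.4% and 18.8% of all genes), and at 2 h with amyloid-beta 8 lower and 3 higher (16.7% and 22.2%), conditions in which Cd274 was not called. Irf1, a direct activator of the PD-L1 gene, rose from 0 h to 8 h with both labels (0.47 ± 0.14 for WT and 0.58 ± 0.14 for PD-1 KO), as did Cd274. Ifngr1, a chain of the interferon gamma receptor, was lower with amyloid-beta at 8 h with the PD-1 KO label by -0.55 ± 0.09 (adjusted p = 0.0229).

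Of 23 docking proteins, kinases and phosphatases that work with SHP-1 and SHP-2, 3 were higher and 9 lower (median 0.01, with 59.5% of all genes called). Gab1, a docking protein of SHP-2, was higher by 0.90 ± 0.07, and Grb2 (-0.48 ± 0.03), the adaptor that links receptors to RAS, Ptpn1 (-0.38 ± 0.03) and Csk (-0.35 ± 0.04) were lower. Of the 5 galectins measured 4 were lower and 1 higher, where 29.1% of all genes were lower: beside Lgals9, Lgals3 (-0.42 ± 0.06), Lgals1 (-0.34 ± 0.06) and Lgals8 (-0.34 ± 0.03) were lower. Lgals4, named after its values were seen, was higher (0.47 ± 0.19, adjusted p = 0.0372), at a mean signal of 19.4 against 14.7. Of 8 proteins known to bind or act beside TIM-3, Lgals9 among them, 2 were higher and 3 lower, where 59.5% of all genes were called, with Adam17, a protease that sheds TIM-3, at 0.24 ± 0.04.

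**Figure D5:**
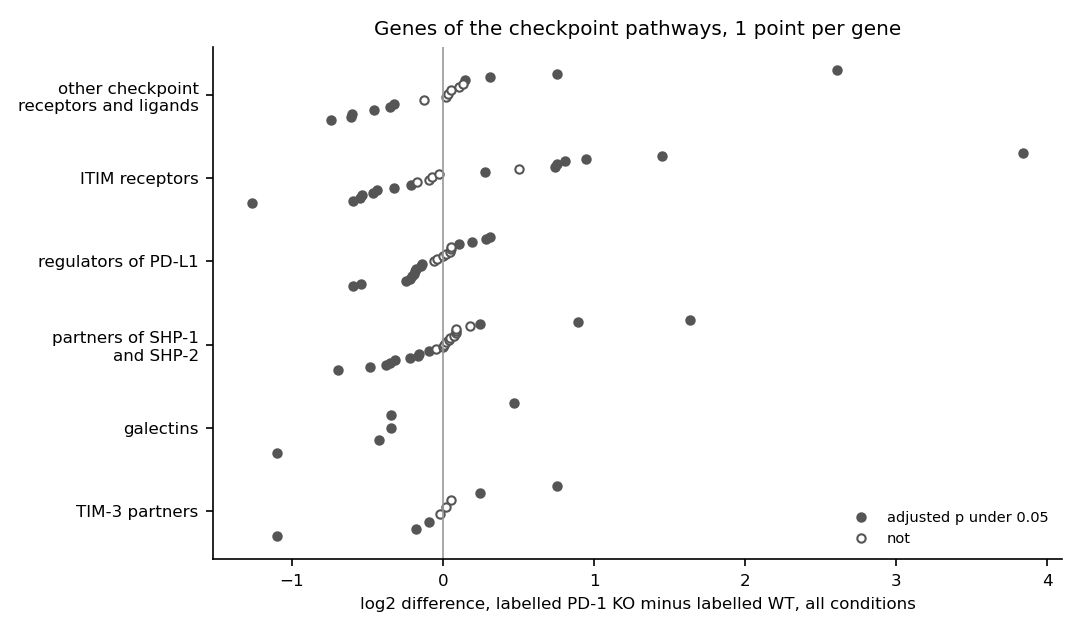
Log2 difference of libraries labelled PD-1 KO minus those labelled WT over all conditions (horizontal axis) for the measured genes of 6 lists, 1 point per gene, ordered by value within a list; filled points passed an adjusted p of 0.05 in limma. Each list holds genes on both sides of 0, with Igsf11 at 2.61 and Cd300lf at 3.84 as the farthest points.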

How the data were processed

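RNA of 30 libraries was sequenced, and the authors deposited 1 table of normalised signal per gene; the name of the deposited file marks its values as deseq, floored and trimmed. No value is under 1, and above that floor each library steps by a constant, as counts divided by a size factor would. Per the submitters' processing notes the tools were R 3.0.2, DESeq2, Partek 6.6 and HISAT 0.1.5, with mm10 as the build and no roles given. In each library all values up to 5000 reads were whole multiples of 1 read (tolerance 0.05 reads), which gave the depths, and 1.08% of values lay at the floor, where up to 4 reads can hide in 12 libraries.

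Genes with a signal of at least 10 in 3 libraries were kept (13722). log2(signal + 1), which understates changes of low genes, was fitted with limma 3.58.1 in R 4.3.3, with all 10 groups in 1 model, and tested two-sided with Benjamini-Hochberg adjustment at 0.05; the scripts were tested on simulated data. The deposited signal was not scaled again. Alternatives were quantile and TMM scaling, other pseudocounts and filters, centring on microglia markers, an astrocyte covariate, fits on the compared groups, leaving out each library, and limma's voom on the recovered reads, chosen after seeing the data. Named genes from each list are the 4 widest called label differences above the median level, and the 2 widest per comparison of time or treatment; likeness is Pearson's r of log2 values, with the 3 highest named. Some genes that these rules select are not reported here. Samples were grouped by their titles and characteristics, and replicate numbers follow accession order. The genes and lists were chosen with earlier results of these data known. Promoters come from RefSeq (GRCm38.p6) and gene positions from the annotation of GRCm38.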

Additional observations from a re-analysis of the deposited data

Results flagged for a closer look

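Lgals9 stood out because its libraries moved in opposite directions with amyloid-beta at 2 h: all 3 labelled WT lay above their untreated group and all 3 labelled PD-1 KO below theirs. The difference between the labels was -1.005 on the log2 scale (95% interval -1.44 to -0.57), with an adjusted p of 0.056 by limma. Beside it the microglia markers had a median difference of -0.27, and the astrocyte markers one of 0.17. Their part in the result was not tested.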

How the results depend on the processing

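Pdcd1 is left out of the counts between the labels here, since its label difference carries no test, and is among the 6 genes in the other counts. Pseudocounts of 0 and 10, TMM scaling, no low-value filter and a filter at 50 left every call of the other 5 genes in place. Leaving Pdcd1 out, the astrocyte covariate left none of the other 5 genes past the threshold between the labels, over all conditions or in any single one. It gave 1 for amyloid-beta at 8 h with either label and 2 for 8 h against 0 h with the WT label, and reversed Havcr2 (0.33 over all conditions, 0.30 at 2 h with amyloid-beta, 0.17 at 8 h, 0.24 at 8 h with amyloid-beta), Ptpn6 (0.49 and 0.076 for the first 2 of these) and Ptpn11 (-0.028 over all). Centring on the microglia markers gave 3 over all conditions, 2 for amyloid-beta at 8 h with the PD-1 KO label, 4 for 2 h against 0 h with the WT label and 5 for the label difference in the 2 h change. In these comparisons it moved the median of all genes to 0.162, 0.446, -0.604 and 0.735. Of all genes called under it, 84.5%, 99.5%, 0.5% and 99.7% were higher. It moved that median to 0.705 for the labels at 2 h with amyloid-beta. It reversed Cd274 (0.017) and Ptpn6 (0.047) over all conditions, Havcr2 (0.31) and Ptpn6 (0.085) at 2 h with amyloid-beta, Cd274 (-0.45) and Ptpn6 (-0.33) in the 2 h change with the WT label, and Lgals9 (0.45), Havcr2 (0.52) and Ptpn6 (0.42) in its label difference. Quantile normalization gave 1 for amyloid-beta at 8 h with either label and 2 for 8 h against 0 h with the WT label. Fits on the compared groups alone gave 1 for amyloid-beta at 8 h with the WT label, 2 and 0 for 8 h against 0 h with the WT and PD-1 KO labels, and 0 for 2 h against 0 h with the PD-1 KO label. The share of all genes called under each of these settings, or without a library, was not taken, so the counts in this paragraph have none beside them. The cause of these changes was not tested. Without each library in turn the counts ran from 1 to 2 for 8 h against 0 h with the PD-1 KO label. They ran from 0 to 1 for amyloid-beta at 8 h with the WT label, for the label difference in the 2 h change and for that in the 2 h amyloid-beta effect. Between the labels calls were lost without some libraries in every comparison. Ptpn6 lost its call over all conditions, Cd274 at 0 h and at 8 h with amyloid-beta, Ptpn11 at 2 h and Havcr2 at 2 h with amyloid-beta. At 8 h Cd274 and Havcr2 both lost theirs without replicate 3 labelled WT. Lgals9 kept its call in each. The mean signal of Pdcd1 differed by 8.54 between the labels at 0 h alone.

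No paired analysis was possible because the labels give no replicate number that groups share. The planned edgeR fit was not run: the deposited values are not counts, and those at the floor do not give back a read number. The voom fit shares the second limit. Depth limits Pdcd1 alone among the 6 genes.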

Other observations

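Between culture times without amyloid-beta, other genes that act beside SHP-1, SHP-2 and TIM-3 changed. Syk, the kinase that SHP-1 restrains, rose from 0 h to 8 h with the WT label by 0.40 by limma. Adam17 rose from 0 h to 8 h with the PD-1 KO label by 0.38. Among regulators of PD-L1, Irf2, a repressor of interferon-responsive genes, fell by 2 h with both labels (-0.35 for WT and -0.46 for PD-1 KO), and Ifngr1 rose by 2 h with the WT label by 0.48, with a label difference in that change of -0.52 (adjusted p = 0.0486). Igsf11 was lower with amyloid-beta at 8 h with the WT label by -1.04 (adjusted p = 0.0404), a comparison in which 4 of 9 astrocyte markers were also lower (median -0.90). Their part in it was not tested.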
